A study of Mus musculus with 2 samples.

Results

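The genes described here are annotated as long noncoding RNAs that run antisense to a protein-coding gene or start back to back with one. They were chosen by annotated transcript biotype and by level. A gene entered when at least 1 of its transcripts was of biotype antisense or bidirectional promoter lncRNA, none was protein-coding or lincRNA, and its abundance reached 1 TPM (a transcript level corrected for length and depth) in both libraries. Kcnq1ot1 and Airn were left out. Of 55536 annotated genes 3266 carried these biotypes, and 123 of them, or 3.77%, reached the threshold. Since the TPM values chose the members, the levels below describe them and test nothing.

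The study sequenced total RNA from heart tissue of adult males 8 to 10 months old, bred from 5xFAD and CAST mice. The 5xFAD line carries human amyloid precursor protein and presenilin transgenes with familial Alzheimer's disease mutations, driven by the neuronal Thy1 promoter, and CAST is an inbred strain of wild-derived mice. There was 1 group of 2 libraries and no control group, and the labels give both libraries the same donor identifier beside separate biosample identifiers, so their spread need not reflect separate animals. Each library started from 300 ng of RNA and was made with a directional kit, which keeps the strand of each transcript, ribosomal RNA having been reduced and ERCC spike-ins added. Expected counts over annotated genes summed to 39668202 in library 1 and 36926511 in library 2. Cardiomyocyte markers were detected in 5 of 5 cases, with mean levels from 296 to 7558 TPM, and the liver and brain markers in 0 of 2 each. The libraries were not copies of each other, since over 17147 genes the chi-square of their counts was 5.35 times its degrees of freedom.

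Many promoters fire in both directions. The RNA made upstream of a coding gene, on the opposite strand, is often short-lived and is removed in the nucleus by the RNA exosome with its adaptors. Some of these RNAs are spliced and stable enough to be annotated as genes. Antisense RNAs instead cross the body of a coding gene on the other strand. Members of both kinds are known in heart, among them Hand2os1 (also called Upperhand) beside the Hand2 gene and Mhrt within the myosin heavy chain locus.

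By the position of the most abundant transcript, 76 members were divergent. Their start lay within 1000 bases of the start of a coding gene on the opposite strand, which is called the partner below. A further 46 members were antisense to their partner without sharing its start region, judged by overlap of the annotated genes. Their most abundant transcript need not cross the partner. That of Tug1 starts 1661 bases outside its partner Morc2a and runs away from it. The remaining member, Gm43079, had no partner on the opposite strand, and lay inside Acad9 on the same strand. All 19 members of the bidirectional biotype were divergent, and so were 57 of the 104 of the antisense biotype. Of all annotated genes of these biotypes, 6.68% of 1138 divergent genes and 2.33% of 1973 antisense genes reached the threshold. The members were spread over all 19 autosomes, with 0 on X, where 45 genes of these biotypes are annotated and 311 coding genes were detected. At the share of 3.77% over all genes of these biotypes, few of the 45 would be members, and nothing is read from the 0.

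Promoter windows of the divergent and the antisense members differed in sequence. RefSeq lists a promoter (assembly GRCm38.p6, 250 bases before to 50 bases after the start) for 72 members by symbol, and for 49 of them the RefSeq start lay within 100 bases of the start used here. The first 3 sequences below belong to the divergent members of highest mean level whose partner start lies in the same window, at least 50 bases away, and whose RefSeq start differs from the GENCODE start by at most 1 base. Capitals mark the bases from next to the partner's nearest annotated start up to the member's start. From that nearest start the partner is transcribed leftward, at the left edge of the capitals. The member is transcribed rightward from their right edge. The partners are Aak1, a kinase of clathrin adaptors, Dpf2, a chromatin factor, and Actg1, cytoplasmic gamma-actin. The annotated Dpf2 gene reaches position 5913010, past the start of Gm42067 at 5912953. The capitals of Gm42067 therefore lie within that gene and are not a gap between the genes.

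2610306M01Rik promoter, chr6:86849391-86849690 (-): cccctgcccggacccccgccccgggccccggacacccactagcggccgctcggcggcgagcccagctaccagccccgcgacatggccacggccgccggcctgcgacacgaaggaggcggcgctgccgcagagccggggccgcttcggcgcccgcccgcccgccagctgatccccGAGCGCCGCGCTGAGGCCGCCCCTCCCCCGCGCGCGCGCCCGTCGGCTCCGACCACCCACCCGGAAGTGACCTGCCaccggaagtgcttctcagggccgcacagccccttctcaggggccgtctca
Gm42067 promoter, chr19:5912704-5913003 (+): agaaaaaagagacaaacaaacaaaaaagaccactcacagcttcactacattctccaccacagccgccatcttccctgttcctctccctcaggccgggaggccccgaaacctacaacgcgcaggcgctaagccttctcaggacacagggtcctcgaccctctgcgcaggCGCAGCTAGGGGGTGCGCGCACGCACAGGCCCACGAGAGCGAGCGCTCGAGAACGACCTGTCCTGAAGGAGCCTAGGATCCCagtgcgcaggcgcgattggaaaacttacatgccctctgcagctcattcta
0610009L18Rik promoter, chr11:120348428-120348727 (+): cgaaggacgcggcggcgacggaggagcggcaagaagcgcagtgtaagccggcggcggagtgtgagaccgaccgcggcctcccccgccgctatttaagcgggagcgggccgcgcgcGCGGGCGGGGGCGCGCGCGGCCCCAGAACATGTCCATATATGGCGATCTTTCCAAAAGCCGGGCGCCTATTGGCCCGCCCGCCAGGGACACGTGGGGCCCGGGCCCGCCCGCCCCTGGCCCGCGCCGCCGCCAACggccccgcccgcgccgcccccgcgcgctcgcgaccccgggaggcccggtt

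The next 2 promoters are those of a divergent member beside cardiac actin and of Mhrt. Neither window holds the partner's start, and capitals mark the first transcribed bases of the member.

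C130080G10Rik promoter, chr2:114054146-114054445 (+): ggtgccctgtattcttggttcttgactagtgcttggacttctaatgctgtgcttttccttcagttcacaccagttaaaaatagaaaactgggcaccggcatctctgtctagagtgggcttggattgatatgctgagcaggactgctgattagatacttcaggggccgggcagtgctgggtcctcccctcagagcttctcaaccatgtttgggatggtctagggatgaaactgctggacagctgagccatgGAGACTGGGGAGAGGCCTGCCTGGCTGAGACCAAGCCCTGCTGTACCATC
Mhrt promoter, chr14:54968537-54968836 (+): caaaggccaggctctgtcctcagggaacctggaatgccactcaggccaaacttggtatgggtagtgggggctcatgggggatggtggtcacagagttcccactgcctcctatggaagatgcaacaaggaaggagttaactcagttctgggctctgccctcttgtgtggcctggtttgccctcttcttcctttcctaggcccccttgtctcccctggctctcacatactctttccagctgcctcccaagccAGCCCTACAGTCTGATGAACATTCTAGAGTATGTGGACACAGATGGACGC

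The windows differ most in the dinucleotide CG, which is depleted from most of the mouse genome but kept in CpG islands. The windows of 2610306M01Rik, Gm42067 and 0610009L18Rik hold 43, 20 and 53 of them. That of C130080G10Rik holds 2 and that of Mhrt 1. A window was counted as CpG-rich at a GC content of at least 50% and a ratio of observed to expected CG of at least 0.6. By this count 23 of 33 divergent members (69.7%) and 5 of 16 antisense members (31.2%) had a CpG-rich promoter. The share was 33.5% of all 32851 RefSeq promoters and 67.4% of the promoters of detected coding genes. The divergent members were thus close to the coding genes and the antisense members close to the average promoter, as a description of those that RefSeq lists. A divergent member starts by definition within 1000 bases of a coding start, so its window can hold promoter bases of the partner itself. The likeness of divergent members to coding genes is therefore partly set by how the class was defined.

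Motifs were searched by their letters on both strands. GGGCGG, the GC box, was in 20 of the 33 divergent windows (60.6%) and in 5 of the 16 antisense windows (31.2%), against 35.7% of all promoters. TATAAA, the TATA box, was in 1 of the 33 divergent windows (3.03%) and 3 of the 16 antisense windows (18.8%), against 13.6% of all. CCAAT was in 15 and 7 of them, or 44.9% of both kinds together, against 37.4% of all. Promoters of detected coding genes held GGGCGG in 63.6%, TATAAA in 6.98% and CCAAT in 37.2%. The GC box share of the divergent windows thus lay near that of detected coding genes, with the same limit that the windows can hold the partner's promoter. Of the windows printed above, those of 2610306M01Rik and 0610009L18Rik hold GGGCGG, those of Gm42067 and 0610009L18Rik hold CCAAT, and those of C130080G10Rik and Mhrt hold none of the 3 motifs.

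The starts of divergent members and partners lay close together, at a median distance of 160 bases, and 48 of 76 pairs lay within 250 bases. In 48 pairs the leading starts lay apart, with a median gap of 156 bases. In the other 28 pairs they lay inside each other's transcript, by a median of 272 bases. This concerns the start used here only: counting all annotated transcripts, 43 divergent members overlapped exons of the partner, 16 of them among the 48 with a gap. Examples of short gaps are 2610306M01Rik and Aak1 at 77 bases and Ndufb1-ps and Cpsf2 at 61 bases. Hand2os1 and Hand2 lay 658 bases apart, and C130080G10Rik and Actc1 848 bases apart, both farther than the median. The start of 1010001N08Rik overlapped the nearest annotated start of Gata6 by 60 bases.

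**Figure D1:**
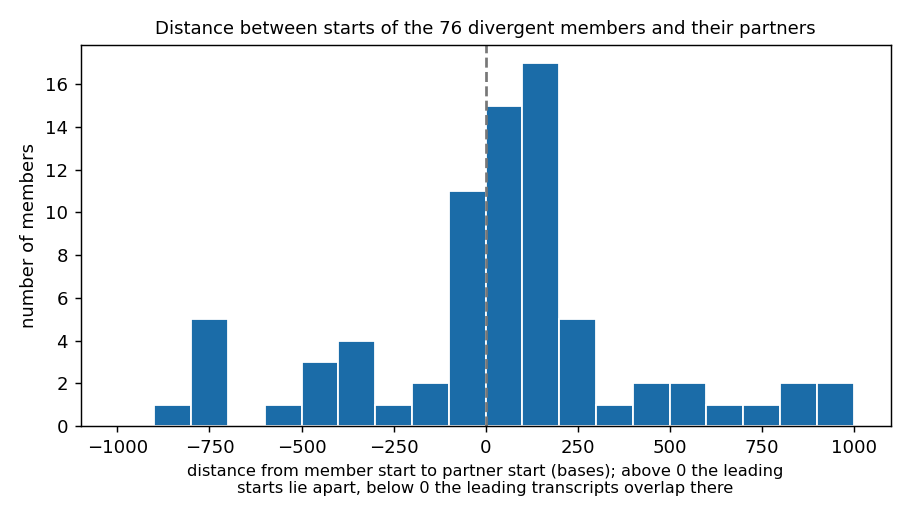
Number of divergent members (vertical axis) by distance in bases from the member's start to the partner's start (horizontal axis), for 76 pairs in bins of equal width. Positive distances are gaps between the leading starts and negative ones overlaps, and 48 pairs lie within 250 bases of 0.

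Most members were low. Their mean levels had a median of 2.42 TPM, with the middle of the distribution between 1.58 and 4.98 TPM, and 49 of the 123 stayed under 2 TPM. Coding genes that met the same threshold had a median of 7.62 TPM, and the 128 lincRNA genes that met it 2.78 TPM. Together the members held 851 TPM in library 1 and 854 TPM in library 2, which is 0.0856% and 0.0858% of the TPM of annotated genes. The upper end was carried by few genes: 15 members reached 10 TPM, 2 reached 100 TPM, and those 2 held 30.0% of the summed level. Expected counts per member had a median of 87 in library 1 and 81 in library 2, and the lowest were 11 and 7. The authors' deposited interval for TPM fell below 1 in a library for 26 members.

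The threshold cut through a continuous range. Just inside it, Gm15743 had 1.03 TPM in library 1 and 1.66 TPM in library 2. AC133523.4 had 1.04 and 1.15 TPM, and Tmem147os 2.12 and 1.06 TPM. Just outside it, BC051226 had 1.21 and 0.99 TPM, Gm48226 1.16 and 0.99 TPM, and Gm17029 0.97 and 0.99 TPM. A further 21 genes of these biotypes reached 1 TPM only in library 1 and 18 only in library 2.

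**Figure D2:**
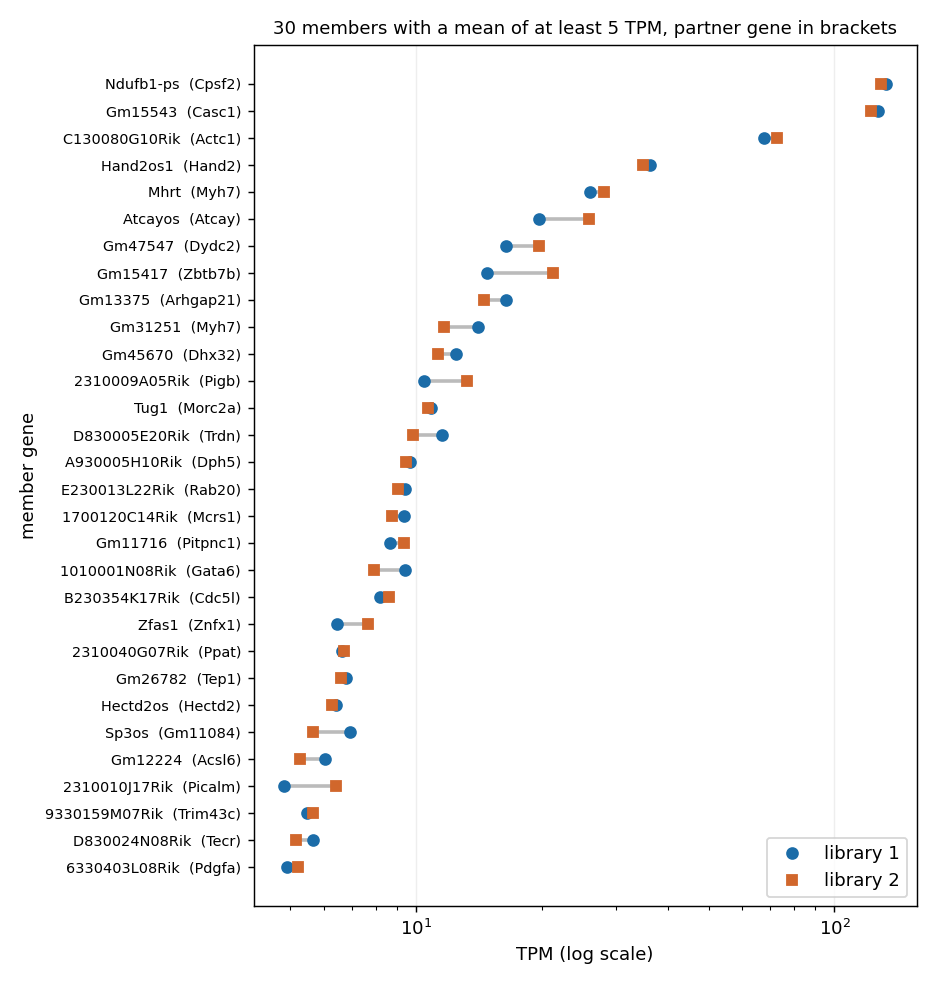
TPM on a log scale (horizontal axis) of 30 members with a mean of at least 5 TPM (vertical axis, partner gene in brackets), with a circle for library 1, a square for library 2 and a grey line joining them. Ndufb1-ps and Gm15543 stand above 100 TPM in both libraries, and all the others lie below.

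Long RNAs beside genes of the contractile apparatus and its calcium release were among the highest members. Those described here are 4 members with such a partner, and their mean levels ran from 10.7 to 70.3 TPM, all 4 above the median of all members. Roles were assigned to partners by hand after the values were seen, so this grouping is a description. All 4 were below their partner, at a median of 2.64% of its level.

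C130080G10Rik starts 848 bases from Actc1, which encodes cardiac alpha-actin. It had 67.81 TPM in library 1 and 72.86 TPM in library 2, a mean of 70.3 ± 3.57 TPM (SD, n = 2). Actc1 had 4394 ± 93.7 TPM (SD, n = 2), so the divergent RNA stood at 1.60% of it. It was high in both libraries, and only Ndufb1-ps and Gm15543 were higher among the members. A530058N18Rik, a member that starts at Gjd2, spans the whole of C130080G10Rik on the same strand and Actc1 on the other. The authors' tables give both members the same posterior standard deviation of the count, as when reads are divided between 2 genes. It was 16.17 in library 1 and 14.76 in library 2. That is small against 2908 and 2997 counts of C130080G10Rik but not against 122 and 94.4 counts of A530058N18Rik, whose 2.62 TPM is therefore uncertain.

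Mhrt is known as a nuclear RNA that binds the chromatin remodelling factor Brg1. It had 26.00 TPM in library 1 and 28.15 TPM in library 2, a mean of 27.1 ± 1.52 TPM (SD, n = 2). Its partner Myh7, the slow myosin heavy chain, had 755 ± 18.95 TPM, so Mhrt stood at 3.59% of the RNA it is antisense to. Gm31251 is a second antisense gene over Myh7, and had 14.06 and 11.62 TPM, or 1.70% of Myh7. Mhrt was the higher of the pair in each library and their values did not overlap. The start of Mhrt lies 1860 bases from that of Myh6, the main myosin heavy chain of the adult mouse ventricle, at chr14:54968678-54974349 on the + strand.

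In the reference sequence, these antisense RNAs are complementary to long stretches of Myh7 coding exons. Of the 828 bases of the leading Mhrt transcript 463 are complementary to coding exons of Myh7, and of the 1248 bases of Gm31251 523 are. The start of the longest coding stretch of each is printed below from the GENCODE M21 transcripts, as the antisense RNA reads, because reads from these stretches can be assigned by strand only. Capitals mark the bases complementary to the partner's coding exons.

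Mhrt over Myh7, chr14:54973878-54973997 (+): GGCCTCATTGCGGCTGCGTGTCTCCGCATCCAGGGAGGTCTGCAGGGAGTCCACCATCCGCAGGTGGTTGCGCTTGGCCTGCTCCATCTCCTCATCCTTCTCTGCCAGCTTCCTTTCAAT
Gm31251 over Myh7, chr14:54979393-54979512 (+): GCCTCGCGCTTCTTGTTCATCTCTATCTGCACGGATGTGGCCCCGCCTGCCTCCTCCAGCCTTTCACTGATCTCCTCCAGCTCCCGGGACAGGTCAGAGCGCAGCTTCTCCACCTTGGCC

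Both stretches were chosen by overlap with Myh7 coding exons in the same reference, so their 0 mismatches to Myh7 are given in advance. The whole stretch of Mhrt is 189 bases long, with 0 mismatches to Myh7. Against the paralog Myh6 it has 3 mismatches, which is 98.4% identity. The stretch of Gm31251 is 170 bases long, with 0 mismatches to Myh7 and 4 to Myh6, or 97.6% identity. In these bases Mhrt and Gm31251 are therefore nearly as complementary to Myh6 as to Myh7, and Myh6 stood at 6765 ± 206 TPM (SD, n = 2).

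D830005E20Rik runs antisense to Trdn, which encodes triadin of the calcium release unit. It had 11.52 TPM in library 1 and 9.84 TPM in library 2, or 8.87% of the 120 ± 1.24 TPM of Trdn, and overlapped no exon of it. It was higher in library 1 than in library 2.

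Genes over abundant exons show how much signal was assigned to the strand opposite to them. There were 25 genes of these biotypes with at least 200 exon bases opposite to exons of a partner above 100 TPM. Their median level was 0.0324% of the partner, and 17 of the 25 stood under 0.1%. Gm13938 opposite to Ttn and A930016O22Rik opposite to Ckm were listed at 0 in both libraries, where the partners had 1012 and 1144 TPM. Gm49540 opposite to Mb had 0.805 TPM, 0.0117% of the myoglobin RNA. Members among the 25 included Mhrt, Gm31251 and BC037032, and these 3 lay above that median, as the threshold on their level requires. The strand setting of the quantification is not given in the sources used here.

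Long RNAs beside genes of transcription and chromatin were more numerous and mostly low. A total of 25 members had such a partner, 21 of them divergent, and their median was 1.96 TPM, with a range from 1.16 to 35.6 TPM. Of these 25, 21 stood below their partner, at a median of 18.5% of it over the group. Several partners are factors of heart development. Because this is bulk tissue, fewer cells that make an RNA and less RNA per cell cannot be told apart.

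Hand2os1 was the highest of this group. It had 36.28 TPM in library 1 and 34.85 TPM in library 2, a mean of 35.6 ± 1.01 TPM (SD, n = 2). Hand2, a bHLH factor needed for the developing right ventricle, had 13.7 ± 0.0283 TPM, so the divergent RNA stood 2.60-fold above the coding gene in TPM. The annotation gives it 37 transcripts, and the most abundant held 34.6% of its level. The gene lies at chr8:57281117-57324233 on the - strand.

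1010001N08Rik starts 60 bases inside the nearest annotated start of Gata6, a zinc finger factor of heart and endoderm, and the annotated genes overlap by 504 bases. It had 9.42 TPM in library 1 and 7.94 TPM in library 2, or 49.1% of the 17.7 ± 1.5 TPM of Gata6. The members at the other developmental factors were lower. Prox1os had 2.15 and 2.03 TPM, or 12.0% of Prox1. Gm13111 had 1.90 and 2.01 TPM, or 44.9% of Prdm16. Zeb2os had 1.81 and 1.35 TPM, or 8.93% of Zeb2. Sox6os, at Sox6, and 2310014F06Rik, at Tead1, a factor of the Hippo pathway, were close to the threshold with means of 1.31 and 1.16 TPM. The 2 stood at 14.1% and 2.15% of their partners, so RNAs beside factors of similar kind differed widely in their share.

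Members beside genes of mitochondria and fuel use were also low, at a median of 2.27 TPM for 10 genes, of which 9 stood below their partner. BC037032 overlaps the 5′ end of Oxct1, which encodes the enzyme that activates ketone bodies. It had 3.84 TPM in library 1 and 4.01 TPM in library 2, which is 0.795% of the 494 TPM of Oxct1 and the lowest share of any member in this quantification. In the second quantification it stood at 0.367%, and 2900060B14Rik was lower at 0.118% of Clasp1. Gm15743 at Bdh1, the other ketone body enzyme in this group, stood at 1.5%. D830024N08Rik, antisense to Tecr of very long chain fatty acid synthesis, had 5.65 and 5.15 TPM, or 2.53% of the partner. Gm12224, antisense to Acsl6, an acyl-CoA synthetase, had 6.05 and 5.27 TPM, or 107% of a low partner.

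Among the 7 highest members 4 had a partner at a few TPM or near 0, and the other 3, C130080G10Rik, Hand2os1 and Mhrt, are described above. Ndufb1-ps had 133.10 TPM in library 1 and 129.45 TPM in library 2, a mean of 131 ± 2.58 TPM (SD, n = 2). Its partner is Cpsf2, a subunit of the 3′ end cleavage factor, at 4.12 TPM, so the member stood 31.8-fold above it. Its symbol carries the ending that mouse nomenclature uses for pseudogenes, here of the complex I subunit Ndufb1. Its place in this group rests on the biotype of its transcripts only, and whether it codes for a protein was not tested. The gene lies at chr12:101968090-101977068 on the - strand.

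Gm15543 had 127.00 TPM in library 1 and 122.33 TPM in library 2, a mean of 125 ± 3.30 TPM (SD, n = 2). It runs antisense through Casc1, which had 0.555 TPM, without overlapping its exons, so that it stood 225-fold above its partner. Its single transcript is 361 bases long with 2 exons, and lies at chr6:145182275-145187630 on the + strand. Atcayos had 19.63 and 25.86 TPM, while Atcay, which encodes the neuronal protein caytaxin, had 0.01 TPM. Gm47547 had 16.36 and 19.70 TPM over Dydc2 at 0.065 TPM. All 4 were present in both libraries at more than 100 counts each while the partner was near 0 or low.

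Gm15417 and Gm13375 were further members above 10 TPM in both libraries. Gm15417, antisense to the zinc finger factor gene Zbtb7b, had 14.79 and 21.22 TPM, or 2.32-fold the partner. Its leading transcript starts outside the annotated Zbtb7b gene and runs away from it, so antisense holds here by overlap of the genes only. Gm13375, divergent from Arhgap21, had 16.36 and 14.50 TPM, or 60.5% of the partner. Gm45670, antisense to the helicase gene Dhx32, had 12.44 and 11.28 TPM, or 71.5% of it. 2310009A05Rik starts 19 bases from the nearest annotated start of Pigb of GPI anchor synthesis, whose exons it overlaps by 661 bases. It had 10.44 and 13.24 TPM, 15.4-fold the partner. These 4 show no common order relative to the partner.

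Among members known from many tissues, Tug1 had 10.83 and 10.67 TPM. Its leading transcript starts 1661 bases from Morc2a, a silencing factor gene at 5.72 TPM. Zfas1, a host gene of small nucleolar RNAs divergent from Znfx1, had 6.47 and 7.68 TPM, or 60.3% of the partner. Snhg14, the long RNA that in neurons runs antisense over the imprinted Ube3a gene, had 2.16 and 2.09 TPM, against 41.8 TPM of Ube3a. Gt(ROSA)26Sor, the locus widely used for transgene insertion, had 2.73 and 2.01 TPM, or 22.1% of its divergent partner Setd5. Mir133a-1hg, the host gene of a muscle microRNA within Mib1, had 4.70 and 5.00 TPM. Of these 5, Tug1 and Snhg14 differed least between the libraries.

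A list of 38 symbols, compiled as known antisense and divergent lncRNAs, was also looked up, of which 34 symbols were found in the tables. Of the 34, 10 were detected, and 4 of these were members: Hand2os1, Mhrt, Zfas1 and Zeb2os. The other 6 did not meet the biotype rule, and the annotation gives Ptges3l among them as protein-coding and Snhg12 and 1700020I14Rik as lincRNA genes. Those not detected included Tbx3os1 with 0.51 and 0.94 TPM and Hotairm1 with 0.34 and 1.04 TPM. Fendrr, known from the embryonic heart, had 0 and 0.01 TPM. Genes of nuclear RNA surveillance, which shorten the life of such RNAs, were detected in 21 of 21 cases, at 1.88 to 18.1 TPM. The list also held Nrd1, which in mouse is the protease nardilysin and was left out of this count after the values were seen. The 21 included Exosc10, the nuclear exosome nuclease, at 10.4 ± 0.255 TPM, Mtrex, its helicase, at 8.19 ± 0.382 TPM, and Zcchc8, an adaptor, at 6.78 ± 0.247 TPM (SD, n = 2 each). These levels say that the transcripts were present and nothing of their activity.

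Over all 122 members with a partner, 96 stood below it in both libraries, 23 above it in both, and 3 changed order between libraries. The median member reached 26.6% of its partner, with the 5 whose partner was listed at 0 counted at the top. Of the 23 above, 15 had a partner under 1 TPM. Divergent members stood at a median of 19.8% of the partner, with 8 above and 67 below. Antisense members stood at a median of 57.9%, with 15 above and 29 below. The median partner level was 12.6 TPM for divergent and 6.0 TPM for antisense members, and the members' own medians were 2.10 and 3.24 TPM. A floor of 1 TPM was set for members and not for partners, so these shares hold for the genes chosen here.

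**Figure D3:**
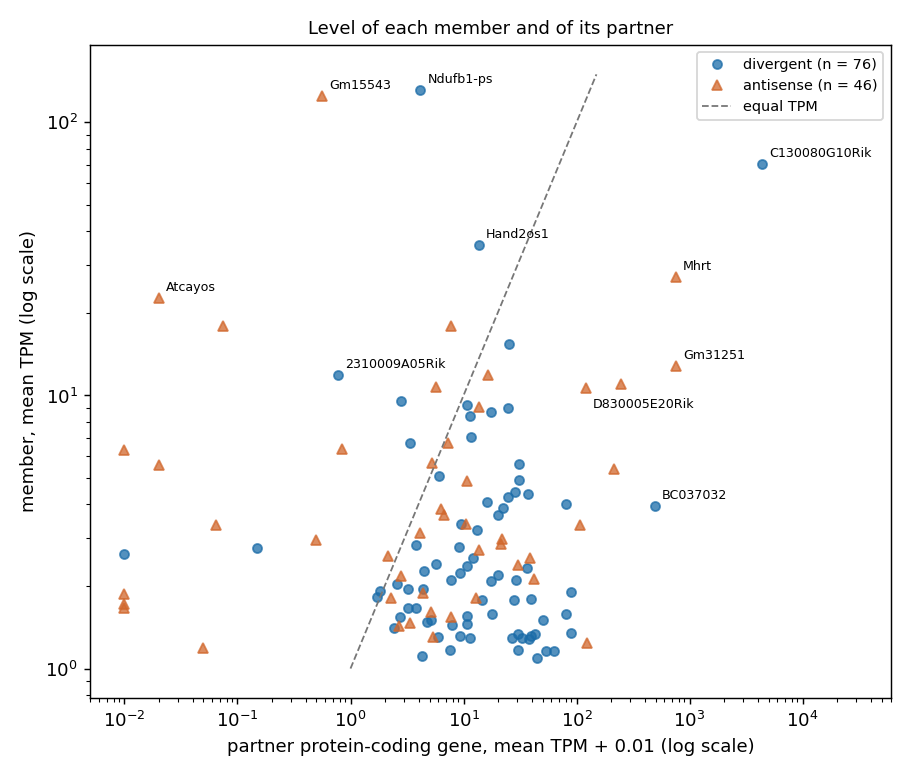
Mean TPM of each member (vertical axis, log scale) against mean TPM of its partner plus 0.01 (horizontal axis, log scale), with circles for 76 divergent and triangles for 46 antisense members and a dashed line at equal TPM. C130080G10Rik, Mhrt, Gm31251 and BC037032 lie far below their abundant partners, and Gm15543, Atcayos and Ndufb1-ps far above theirs.

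Levels of members and partners were weakly correlated. Across the 122 pairs, log2(TPM + 1) of member and partner gave a Pearson's r of 0.10 and a Spearman's rho of -0.02. Within the divergent pairs they were 0.14 and -0.11, and within the antisense pairs 0.14 and 0.19. These are correlations across genes, which share the libraries and are not independent replicates. The threshold also narrows the range of the members' levels, so the values hold only for the genes chosen here. Of the 121 different partners of members 106, or 87.6%, were detected, against 1600 of the 2589 partners (61.8%) of genes of these biotypes that did not reach the threshold. The median partner level was 10.7 TPM against 2.75 TPM.

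The members were mostly short and spliced. The leading transcript had a median length of 901 bases, from 271 bases in 2310010J17Rik to 5521 bases in 6330403L08Rik. It had 1 exon in 20 members, 2 exons in 51 and at least 3 in 52, with 6 at most. For 81 members several transcripts are annotated, and the leading one held a median of 68.0% of the gene's level. Among the 46 antisense members 30 overlapped exons of the partner, 19 of these its coding exons, and 16 lay over introns or outside its exons only. Over all members, 73 overlapped partner exons on the other strand, and for 68 of these the authors' posterior standard deviation of the count was 0 in both libraries. It was above 0 for 11 members in all. A small number lay close to another gene on their own strand: 4 overlapped a coding gene there, and 5 started within 5000 bases downstream of a detected gene. Whether reads of such a neighbour ran into them was not tested.

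The libraries differed by less than 2-fold for these RNAs. With a log2 ratio of (TPM + 1) in library 2 over library 1, 0 of 123 members reached 2-fold, where 0.603% of the 11940 genes tested did (0.377% higher in library 2 and 0.226% higher in library 1). The members' share of 0 is near that background, and nothing particular to them is read from it. Of the members 61 were higher in library 2 and 62 in library 1, with a median of -0.01, the same as over all genes tested. The ratios ran from -0.69 to 0.64 with a standard deviation of 0.23, against 0.26 for all genes tested. Across the 123 members the libraries correlated with r = 0.98 and rho = 0.92, a description of genes that were chosen by level in both. With 2 libraries of 1 group no p-value was computed.

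Some members differed by more than counting error. Over the 123 members the chi-square of the counts averaged 2.16 per member, above the 1 that counting error alone gives. The exact (Clopper-Pearson) 95% interval of the count ratio, scaled by library totals, excluded 1 for 13 members, 5 higher in library 2 and 8 higher in library 1. That is 10.6% of the members, where 23.3% of the 11940 genes tested were called by the same interval (12.8% higher in library 2 and 10.4% higher in library 1). It was 17.7% of 3487 other genes with mean levels between 1.58 and 4.98 TPM. These intervals cover counting error only and were not adjusted for the number of genes, so a few would exclude 1 by counting error alone. Members with the highest ratios in library 2 by TPM included Gm15417, Gm15743, Atcayos and 2310010J17Rik. Atcayos had 1040 and 1258 counts, a ratio of 1.30 (interval 1.2 to 1.41), higher in library 2 beyond counting error.

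Gm15417 shows how TPM and counts can part. Its TPM was 14.79 in library 1 and 21.22 in library 2, a log2 ratio of 0.49, while its counts were 256 and 245, a scaled ratio of 1.03 (0.859 to 1.23). In the second quantification its TPM was 21.7 and 15.04, in the opposite order. The gene has 4 annotated transcripts, and TPM depends on how reads are divided among transcripts of unequal length, so its library difference is not settled by these tables.

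The members lowest in library 2 were Rab26os, Gm13594, Tmem147os, 4930481A15Rik and 4632427E13Rik. Rab26os, divergent from Traf7, had 2.44 and 1.13 TPM from 19 and 7 counts, a ratio of 0.396 (0.141 to 0.983). It is the 1 member that passed 2-fold when the pseudocount was 0.1 or when scaled counts replaced TPM. Gm13594, which starts 35 bases from the nearest annotated start of Cobll1, had 58 and 31 counts, a ratio of 0.574 (0.359 to 0.903). Of the heart pairs, Gm31251 had a ratio of 0.835 (0.733 to 0.951). Hand2os1 had 0.898 (0.816 to 0.989) and D830005E20Rik 0.880 (0.780 to 0.992), lower in library 2 with unadjusted intervals that only just exclude 1. C130080G10Rik was higher there, at 1.11 (1.05 to 1.17). Mhrt had 1.10 (0.980 to 1.24) and 1010001N08Rik 0.923 (0.736 to 1.16), and both intervals include 1. The lower counts in library 2 thus held for Gm31251 and not for its neighbour Mhrt, although the difference between the 2 was not tested.

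**Figure D4:**
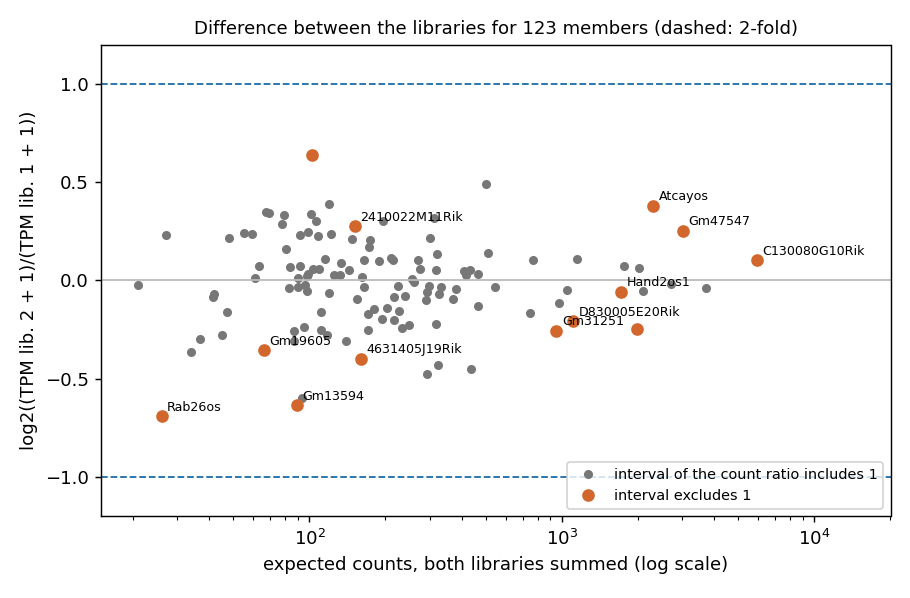
Log2 ratio of (TPM + 1) in library 2 over library 1 (vertical axis) against expected counts summed over both libraries (horizontal axis, log scale) for 123 members, with dashed lines at 2-fold. The 13 orange points, 11 of them named, have a count ratio whose interval excludes 1, and no member reaches a dashed line.

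Markers of the atria and of several cell types differed between the libraries, in both directions. All 4 atrial markers were higher in library 2, with a median log2 ratio of 0.38 and summed levels of 1163 and 1551 TPM. All 4 adipocyte markers were higher in library 2 too, with a median log2 ratio of 1.63 and summed levels of 6.0 and 27.3 TPM, and none of these 8 markers was at 0 in either library. The 5 cardiomyocyte markers summed to 22708 and 22516 TPM. Higher in library 2 were also 3 of 3 skeletal muscle and 2 of 3 macrophage markers. Of the endothelial markers 0 of 3 were higher there (91.0 and 83.1 TPM summed), and of the fibroblast markers 0 of 3 (139 and 129 TPM). The part of all these markers in the library differences of the members was not tested. Member and partner moved in the same direction between libraries in 65 of 107 pairs with a detected partner.

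The second deposited quantification gave the same picture for most members. In it 119 of the 123 reached 1 TPM in both libraries, and 114 had mean levels within 1.5-fold of the first. Members were higher there in 89 cases, with a median of 2.75 TPM. The 4 members lower by more than 1.5-fold in the second began with 2900060B14Rik, antisense to Clasp1, at 1.25 TPM in the first and 0.17 TPM in the second. The others were Rab26os at 1.78 and 0.888 TPM, BC037032 at 3.92 and 2.13 TPM, and 2310010J17Rik at 5.62 and 2.68 TPM. Gm28609, with 3.86 and 6.20 TPM, and Gm11816, with 2.58 and 4.70 TPM, were higher in the second. The level of BC037032 relative to Oxct1 and the presence of 2900060B14Rik therefore depend on the quantification used.

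**Figure D5:**
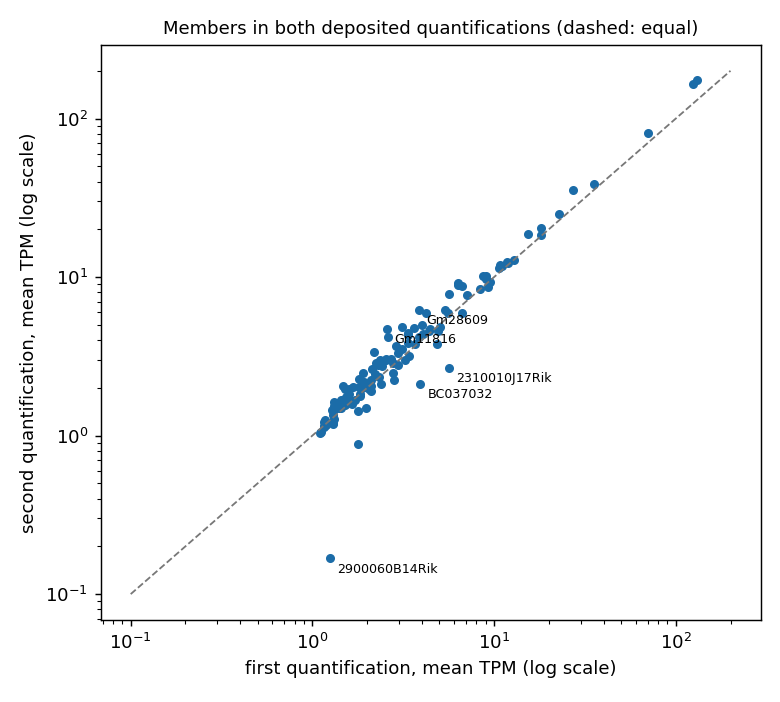
Mean TPM of the 123 members in the second quantification (vertical axis, log scale) against the first (horizontal axis, log scale), with a dashed line at equal values and the 5 members that differ most named. Most points lie on or slightly above the line, and 2900060B14Rik lies far below it.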

How the data were processed

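Total RNA of heart was sequenced in 2 libraries of 1 group. Per the file headers, the authors' deposited gene and transcript tables (first quantification) give expected counts, in which shared reads are split by an estimator, with TPM and FPKM. The authors' deposited score values are the bounds of the TPM interval and the posterior standard deviation of each count. A transcript table in another layout, called the second quantification, holds estimated counts and TPM, summed here per gene. Deposited FPKM was an alternative only. Reads were aligned to mm10 with GENCODE M21, per the deposited readme, and for the aligner the name was not given in the sources used here. Entries that are not annotated genes were left out of library totals.

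Members and gene lists were chosen with earlier results of these data known. A gene's start was that of its most abundant transcript, and a member was divergent when that start lay within 1000 bases of an opposite-strand coding start. The log2 ratio used TPM + 1 and understates the ratio of low genes. It was asked of genes with at least 10 counts in a library and a mean of at least 1 TPM. No group test was possible. The text names the 15 members of highest mean TPM, the 5 highest and 5 lowest by library ratio, by ratio to partner and by difference between quantifications, members of the known list, those beside listed heart genes and the edges of the threshold. Others were named by partner role, after their values were seen. Alternatives were other TPM thresholds, FPKM, the second quantification, a pseudocount of 0.1, no filter, other start windows, each library alone, and expected counts, rounded to whole numbers, scaled by edgeR 4.0.16 TMM factors or DESeq2 1.42.0 size factors. The fold rule and interval were tested on simulated data. Tools were Python 3.11.15, pandas 2.3.3, scipy 1.17.1 and R 4.3.3. Results for some genes are not reported here.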

Additional observations from a re-analysis of the deposited data

How the results depend on the processing

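The number of members follows the threshold, with 195 genes at 0.5 TPM and 68 at 2 TPM in place of 123. The median level was 2.75 TPM in the second quantification and 2.03 as deposited FPKM, in place of 2.42 TPM. The count of members at 2-fold between the libraries was 1 (Rab26os) with a pseudocount of 0.1, with TMM factors and with DESeq2 size factors, where the background rose from 72 to 153, 127 and 125 of 11940 genes. The correlation of member and partner levels was 0.0576 in the second quantification and 0.0484 with a pseudocount of 0.1, in place of 0.101. The cause was not tested. The median library ratio lay between -0.02 and 0.01 over all settings, so it has no stable sign. The class counts, the number above the partner and the leading share stayed within 1.5 times or 1 standard deviation.

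With each library alone, 141 to 144 genes met the rule, the median was 2.37 to 2.47 TPM, 23 to 26 members lay above their partner, the correlation was 0.0883 to 0.114, and 119 to 122 members reached 1 TPM in the second quantification. No paired analysis was possible because the labels give 1 group only. Depth limits the lowest members, which rest on as few as 7 counts.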
